A study of Mus musculus with 3 samples.

Results

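The matrix metalloproteinases, the membrane-bound proteases of the ADAM family and the tissue inhibitors of metalloproteinases (TIMPs) were followed in MigA9 cells exposed to DB818. The set comprised 10 genes of the 27391 on the array, chosen by gene name: Timp1, Timp2, Timp3, Mmp8, Mmp9, Mmp14, Mmp25, Adam8, Adam10 and Adam17. Together they had 15 of the 41174 probes. Only 5 of the 10 genes, with 6 probes, were measured in both channels of every array.

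MigA9 is a mouse hematopoietic line that Hoxa9, a homeobox transcription factor, has transformed and that is kept in medium that contains GM-CSF-conditioned medium, so both groups carry the Hoxa9 transformation and both received the cytokine. DB818 binds in the minor groove of DNA and was made to keep HOXA9 off its binding sites. Cells given 2.5 µM DB818 for 6, 12 or 24 h (Cy5) were each compared on 1 two-colour array with untreated cells of the same line (Cy3). No time had a second array, the dyes were never swapped, and whether the untreated RNA was 1 preparation or was matched in time is not stated in the labels. As a single line, it stands for itself and not for Hoxa9-driven leukemia in general.

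Matrix metalloproteinases are zinc enzymes, secreted or held at the membrane, that cut collagens and other matrix proteins. ADAM proteases sit in the membrane and release the outer parts of surface proteins, among them cytokines, receptors and adhesion molecules. TIMPs bind the active site of matrix metalloproteinases and block them. Their reach into the ADAM family differs and is broadest for TIMP3. TIMP2 also serves, with MMP14, in the activation of MMP2. In granulocytes Mmp8 (neutrophil collagenase) and Mmp9 (gelatinase B) are stored in the later granules, and Mmp25 is a membrane-anchored enzyme of leukocytes.

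Of the 5 genes that were measured, Timp2 rose at every time and, with loess, ranked 3 from the top of 10956 genes tested by its mean ratio. Mmp8 and Adam8 fell. Adam10 passed as slightly higher, in a call that did not hold without any 1 array and turned direction with median centring. Adam17 did not pass the test. The RefSeq sequences just upstream of the start of the 3 genes with the larger differences are shown first, since they are the genes on which the comparisons below turn. Each is the 250 bases before the start, on build GRCm38.p6. Timp2 lies on the minus strand (chr11:118355412-118355661), Mmp8 on the plus strand (chr9:7558179-7558428) and Adam8 on the minus strand (chr7:139992563-139992812). Capitals mark the letters TTTAC, on either strand.
Timp2: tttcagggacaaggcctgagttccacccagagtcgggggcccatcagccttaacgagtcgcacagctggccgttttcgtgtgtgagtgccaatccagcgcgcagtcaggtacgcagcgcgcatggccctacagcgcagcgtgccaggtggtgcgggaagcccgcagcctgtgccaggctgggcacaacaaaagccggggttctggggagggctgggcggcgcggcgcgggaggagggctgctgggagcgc
Mmp8: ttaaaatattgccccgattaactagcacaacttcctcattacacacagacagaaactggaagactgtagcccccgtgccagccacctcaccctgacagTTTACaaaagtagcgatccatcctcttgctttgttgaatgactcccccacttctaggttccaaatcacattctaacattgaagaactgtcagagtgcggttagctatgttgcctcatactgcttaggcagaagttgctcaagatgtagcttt
Adam8: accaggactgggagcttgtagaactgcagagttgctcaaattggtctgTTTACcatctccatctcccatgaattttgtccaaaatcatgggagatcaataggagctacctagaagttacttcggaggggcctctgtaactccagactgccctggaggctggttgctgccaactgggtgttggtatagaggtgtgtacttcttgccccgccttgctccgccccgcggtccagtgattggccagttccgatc
The letters searched, on both strands, were TTTAC and TTTAT (cores bound by posterior Hox proteins), TGATTTA (a Hox and Pbx element), TGANTCA (the AP-1 element known from several metalloproteinase promoters) and TATAAA. The last overlaps with TTTAT, which its reverse complement contains. Of 32851 RefSeq promoters cut to the same length, 28.3% held TTTAC, 37.3% TTTAT, 2.61% TGATTTA, 6.75% TGANTCA and 12.4% TATAAA. Mmp8 and Adam8 each had 1 match to TTTAC, beginning 152 and 202 bases upstream of the start, and none to the other letters. Timp2 had no match to any of the 5. Its upstream sequence was 68.0% G and C, that of Mmp8 44.8% and that of Adam8 52.8%, against a median of 52.4% over all promoters. In all, 9 of the 10 genes had an entry in the promoter table. Mmp9 is named only. Of the entries not shown, Timp1 had 1 match to TTTAT, beginning 21 bases upstream of the start. Timp3, Mmp14, Mmp25, Adam10 and Adam17 had no match to any of the 5. The matches are a description of these windows, and a link between them and the ratios was not tested.

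Levels in the deposited intensity files placed the 10 genes into those with a clear signal and those without. The 9 probes that were not measured had mean spot signals of 63.0 to 78.0 in treated cells and 73.45 to 83.03 in untreated cells over the 3 arrays, beside a median over all probes of 71.7 to 72.0 in treated cells and 78.1 to 79.3 in untreated cells. They therefore sat at the level of the typical dim probe. For Timp3, Mmp9, Mmp14 and Mmp25 no probe was well above background in either channel on any array, so no ratio is given for these 4 genes. Timp1, an inhibitor also known for promoting the growth of erythroid precursors, came closest: 1 of its 3 probes was well above background in treated cells at 24 h (77.97, against 81.41 in untreated cells), and the other arrays and probes were not. With both channels this near the background the bound for that probe was under 1-fold, and no fold is given. Mmp9 had signals of 68.76, 71.07 and 74.77 in treated cells at 6, 12 and 24 h for one probe, against 77.16, 79.76 and 77.87 in untreated cells, and 71.63, 71.57 and 73.41 against 76.15, 77.07 and 74.44 for the other. The number of arrays and the signal over background limit the precision here, and a level below the background is not shown to be absent.

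**Figure D1:**
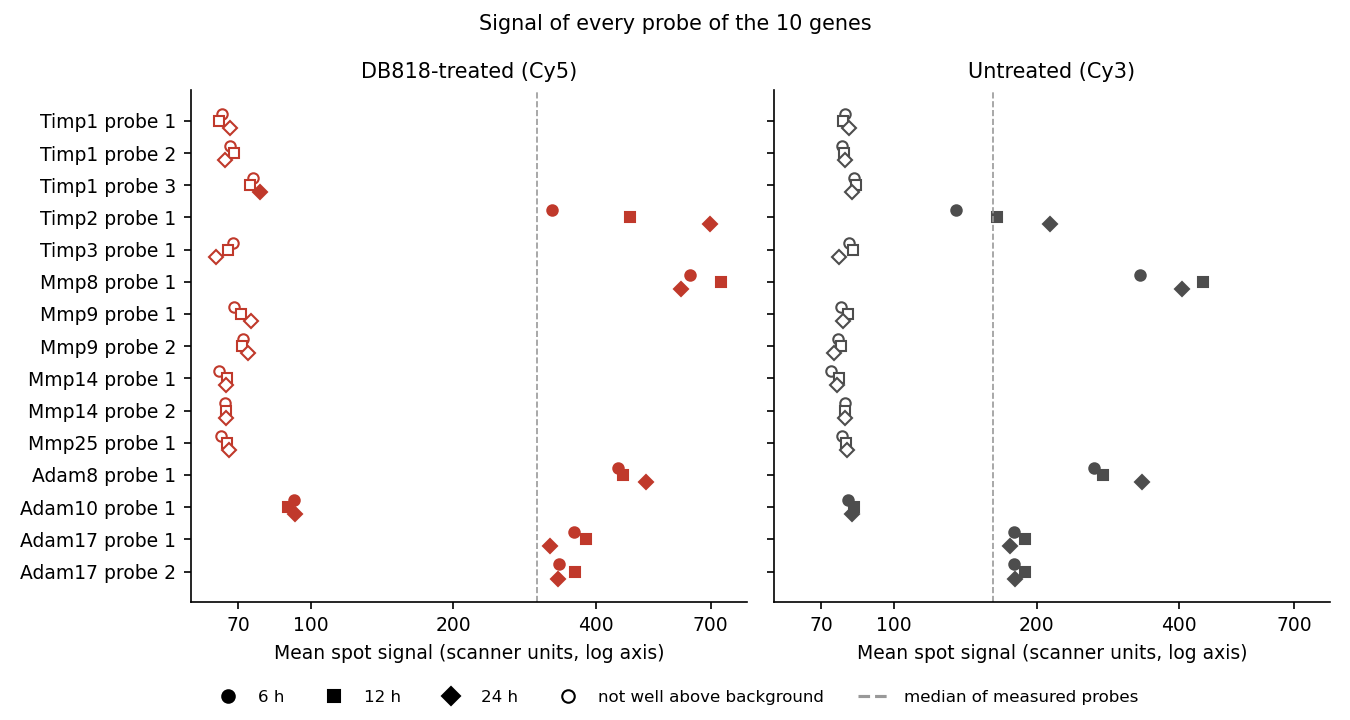
Mean spot signal (scanner units, log axis) of each of the 15 probes of the 10 genes, in DB818-treated cells (left) and untreated cells (right), with circles, squares and diamonds for the 6, 12 and 24 h arrays. Open symbols were not well above background, and the dashed line is the median of the measured probes in that channel. Timp2, Mmp8, Adam8 and Adam17 stand clear of the background, and Adam10 sits just above it. The probes of the other 5 genes stay at or below 83.03 in both channels. In untreated cells the Adam10 signals (79.75 to 82.32) lie below that value as well.

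The wider families were counted by gene symbol. Of the 4 Timp genes on the array 1 was measured on every array, of 21 Mmp genes 2 (Mmp8 and Mmp19), of 29 Adam genes 6 (Adam3, Adam8, Adam9, Adam10, Adam15 and Adam17) and of 18 Adamts genes 2 (Adamts10 and Adamts14). These are shares of 25, 9.52, 20.7 and 11.1%, beside 40% for all genes on the array. Mmp2, the gelatinase that MMP14 and TIMP2 together activate, was not measured on any array, nor were Timp4 or the membrane-anchored inhibitor Reck.

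Timp2 was the member with the largest difference. Its spot signal was 323.5, 473.5 and 698.5 in treated cells at 6, 12 and 24 h, against 135.0, 165.1 and 213.5 in untreated cells. After background correction and normalisation the log2 ratios of treated to untreated cells were 0.50, 0.69 and 0.73, which are differences of 1.42-fold, 1.61-fold and 1.66-fold. Treated cells were thus higher on each of the 3 arrays, and the 3 ratios lay within 0.23 of one another. The mean over the 3 times was 0.64 ± 0.05 (SE, n = 3 arrays, limma adjusted p = 0.00336), or 1.56-fold. In the authors' deposited table the scanner's log10 ratios for this probe were 0.191 ± 0.066, 0.238 ± 0.066 and 0.227 ± 0.065 (the scanner's own error) at 6, 12 and 24 h. The call for Timp2 held without any 1 array and under every other setting tried, with means of 0.60 to 0.74. Its rank holds for loess. The mean was at percentile 99.8 of the genes tested from Agilent's processed signals and at 99.4 with median centring. Since Timp2 has 1 probe on this array, no second probe bears on it.

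A call here means that the mean log2 ratio of the 3 times differed from 0 in a limma fit of all genes measured on the 3 arrays, at a false discovery rate of 0.05. Of 10956 genes 27.9% passed, 20.1% higher and 7.86% lower, and this is the background for the count of 4 of 5 members that passed, 2 higher and 2 lower. The 3 times stand in for replicates, and nothing in the labels gives separate cultures, so the p-values measure the spread between these arrays. A dye bias of a probe that is the same on each array, or a deviation of a shared untreated RNA, adds to every ratio and does not enter that spread. The split of calls also rests on the scaling: 2199 genes were higher and 861 lower, against 590 higher and 640 lower from Agilent's processed signals, and 4154 higher and 4476 lower when median centring replaced loess.

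The secreted collagenase Mmp8 fell. Its spot signal was 633, 737.2 and 606.9 in treated cells at 6, 12 and 24 h, against 331.2, 449.6 and 406.6 in untreated cells. Raw signals were brighter in Cy5, with a median over measured probes of 295 to 301 in treated cells and 162 to 167 in untreated cells, and loess removes such a gap. The log2 ratios were then -0.10, -0.33 and -0.50, that is 1.07-fold, 1.26-fold and 1.41-fold lower in treated cells, each later array below the earlier one. The mean was -0.31 ± 0.07 (SE, n = 3 arrays, limma adjusted p = 0.019), with treated cells lower on 3 of 3 arrays. This call was lost without the 12 h array (-0.30, adjusted p = 0.0866), from Agilent's processed signals (-0.40, adjusted p = 0.0536) and with median centring (-0.14, adjusted p = 0.108). The mean stayed below 0 in each of them, although with median centring the 6 h ratio was 0.06, beside -0.16 at 12 h and -0.32 at 24 h.

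Adam8, a protease of the surface of myeloid cells, fell as well. Signals were 445.3, 456.5 and 511.9 in treated cells and 265.0, 276.0 and 334.0 in untreated cells at 6, 12 and 24 h. The log2 ratios were -0.22, -0.22 and -0.41, so the treated cells were lower on 3 of 3 arrays, by 1.17-fold, 1.16-fold and 1.33-fold. Its mean of -0.28 ± 0.04 (SE, n = 3 arrays, limma adjusted p = 0.00764) was among the 99 lowest of the 10956 genes. That of Mmp8 was among the 75 lowest. The call for Adam8 was kept under every alternative of processing and without each array, with a mean of -0.18 under median centring. The ranks hold for loess: with median centring Adam8 was at percentile 36.3 and Mmp8 at percentile 39 of the genes tested.

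Adam10 and Adam17, the main shedding proteases, differed little. Adam10, which releases the outer part of Notch receptors, had signals of 92.06, 89.26 and 92.25 in treated cells and 79.75, 82.32 and 81.32 in untreated cells, only just above the background. Its log2 ratios were 0.12, 0.05 and 0.15, with a mean of 0.11 ± 0.03 (SE, n = 3 arrays, limma adjusted p = 0.0474). That call was lost when any 1 array was left out (adjusted p = 0.0831 without the 6 h array, 0.135 without 12 h and 0.158 without 24 h). With median centring the mean turned to -0.64 (adjusted p = 2.54e-05), and from Agilent's processed signals it was 0.43, so neither the size nor the direction for this dim probe is settled. Adam17, the enzyme that releases tumor necrosis factor, has a pair of probes, with signals of 320.1 to 381.8 in treated cells and 175.8 to 188.9 in untreated cells. One probe gave 0.15, 0.19 and 0.04 and the other 0.07, 0.11 and 0.04 at 6, 12 and 24 h, so both stood above 0 on every array and were closest to 0 at 24 h. From Agilent's processed signals the 24 h ratio of the gene was -0.04. The mean of the gene, 0.10 ± 0.03 (SE, n = 3 arrays), did not pass (limma adjusted p = 0.0656), although it did with the brightest probe alone (0.13, adjusted p = 0.0494) and with array weights (0.13, adjusted p = 0.0013). The weights were 0.424, 4.4 and 0.536 for the 6, 12 and 24 h arrays. The weighted fit thus rests mainly on the 12 h array, where the ratio of the gene was highest (0.15). From Agilent's processed signals the mean was 0.04 (adjusted p = 0.566). A miss at this threshold does not show that the level was the same.

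**Figure D2:**
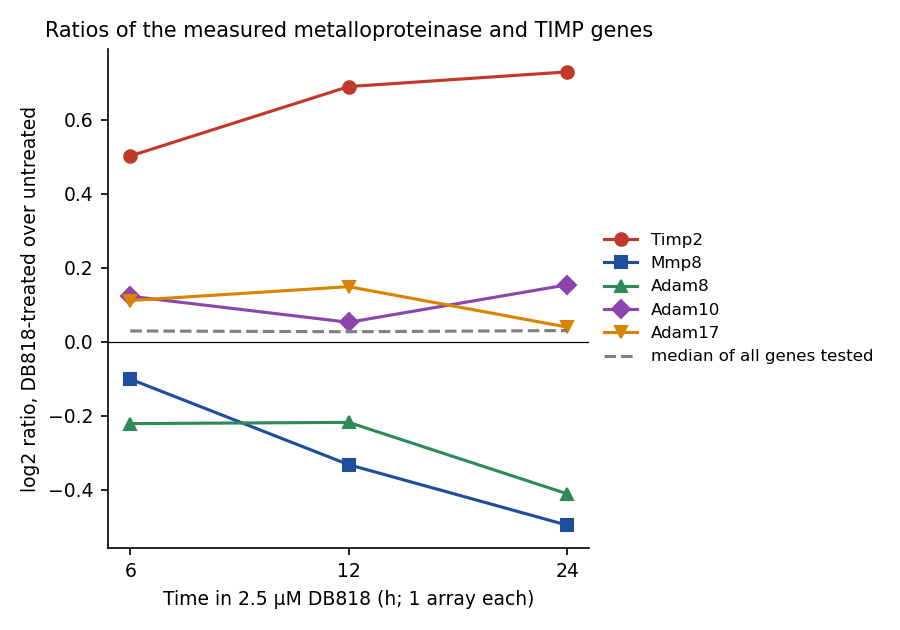
Log2 ratio of DB818-treated to untreated cells (vertical axis) at 6, 12 and 24 h (horizontal axis, 1 array each, evenly spaced) for the 5 measured genes, with the median of all tested genes dashed. Timp2 lies at 0.50 to 0.73, Adam10 and Adam17 between 0.04 and 0.15, and Mmp8 and Adam8 below 0 at every time, with Mmp8 reaching -0.50 at 24 h.

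Read by size alone, with no test since each time has 1 array, 0, 1 and 1 of the 5 measured members (Timp2) differed at least 1.5-fold at 6, 12 and 24 h, beside 0.21, 0.2 and 0.562% of all genes measured at those times. Repeat spots of the same probe scattered with an SD of 0.0458, 0.0336 and 0.0507 in the log2 ratio on these arrays, a measure of spotting and scanning alone.

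**Figure D3:**
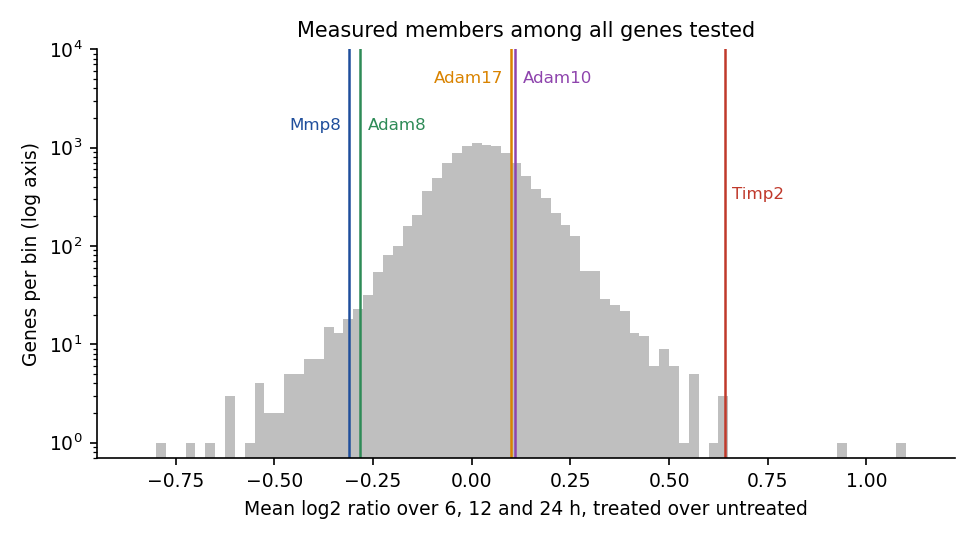
Histogram of the mean log2 ratio over the 3 times for all 10956 genes tested (horizontal axis; number of genes on a log axis), with lines at the 5 measured members. Timp2 at 0.64 is beyond nearly all genes on the high side, Mmp8 at -0.31 and Adam8 at -0.28 lie in the low tail, and Adam10 and Adam17 at 0.11 and 0.10 lie within the bulk.

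The change of each ratio with time was tested as a slope per doubling of time, in which a constant dye bias cancels. Mmp8 fell by 0.20 ± 0.03 on the log2 scale per doubling (SE, limma adjusted p = 0.0173), and its ratio was 0.40 lower at 24 h than at 6 h. It was the 1 member of 5 that passed, where 3.05% of the 10956 genes did. Slopes of the other members were 0.11 ± 0.03 for Timp2 (adjusted p = 0.108), -0.09 ± 0.04 for Adam8 (adjusted p = 0.19), 0.02 ± 0.04 for Adam10 and -0.04 ± 0.03 for Adam17. At an unadjusted p under 0.05 the count was 3 of 5 members (Mmp8, Timp2 and Adam8), beside 19.9% of all genes. With 1 residual degree of freedom the test leans on the spread shared by all genes. The call for Mmp8 was lost with plain background subtraction (-0.22, adjusted p = 0.0553), Agilent's processed signals (-0.21, adjusted p = 0.226) and median centring (-0.19, adjusted p = 0.0938), at slopes of about the same size.

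The levels in each channel, normalised so that arrays can be compared, differed between arrays for some members in the untreated channel as well. Whether the untreated cells themselves differed cannot be told, since the labels do not say if their RNA was 1 preparation. For Timp2 the log2 level was 7.90, 8.38 and 8.90 in treated cells on the 6, 12 and 24 h arrays, against 7.39, 7.69 and 8.17 in untreated cells. It was higher on the 24 h than on the 6 h array by 1.00 in treated cells and by 0.77 in untreated cells. Of 15867 probes measured on every array these differences lay at the 99.9 and 99.8 percentiles. Most of the spread of the Timp2 signal between arrays was therefore common to both channels, while the gap between the channels was present on each array.

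For Mmp8 the levels were 8.79, 8.93 and 8.67 in treated cells and 8.90, 9.27 and 9.17 in untreated cells. Between the 6 and 24 h arrays the treated level differed by -0.12 (percentile 23.5) and the untreated level by 0.27 (percentile 95.4). The growing gap was thus made up of both, with the larger part in the untreated level. On the 12 h array both levels were above those on the 6 h array, the untreated one by more. For Adam8 they were 8.31, 8.28 and 8.44 in treated cells and 8.53, 8.50 and 8.85 in untreated cells, with differences of 0.13 (percentile 81.5) and 0.32 (percentile 97.1). Thus the lower 24 h ratio of Adam8 went with a rise on that array that was larger in untreated than in treated cells. Adam10 and the Adam17 probes differed between the 6 and 24 h arrays by -0.01 to -0.21 in treated cells and by -0.04 to -0.10 in untreated cells. Each array is its own slide, so slide and time cannot be told apart.

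**Figure D4:**
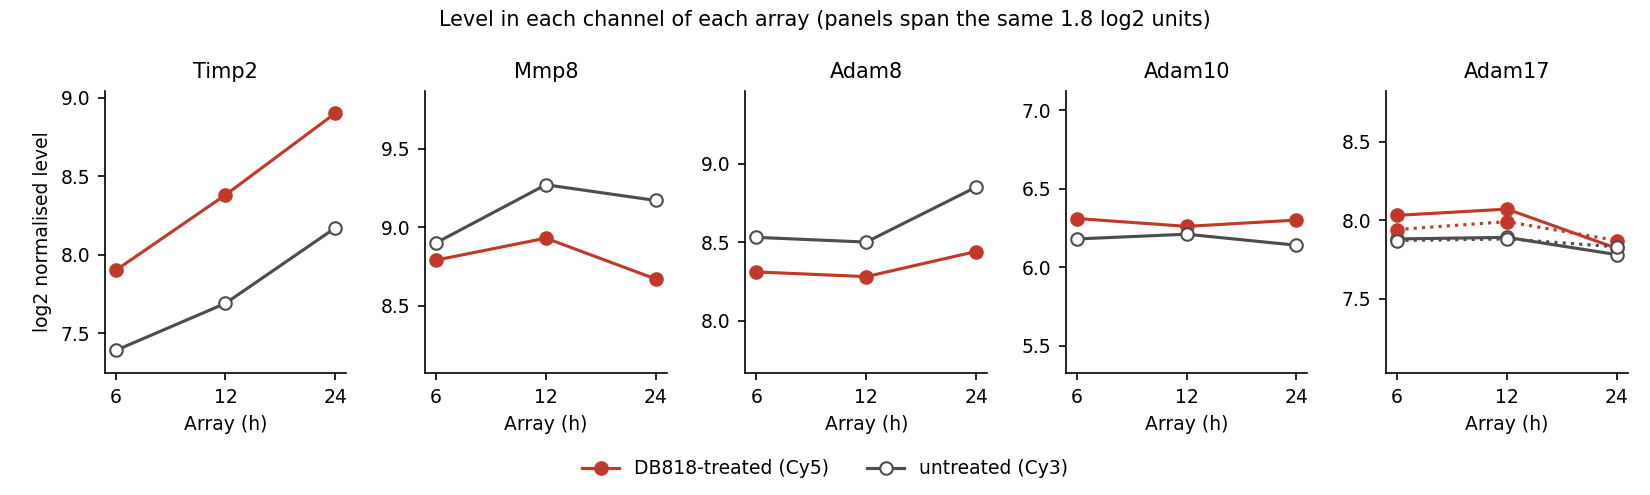
Log2 normalised level (vertical axis, each panel spanning 1.8 log2 units) in DB818-treated cells (filled) and untreated cells (open) on the 6, 12 and 24 h arrays, for the 5 measured genes; dotted lines are the other Adam17 probe. Timp2 is higher on later arrays in both channels, at 8.90 in treated and 8.17 in untreated cells on the 24 h array, and Mmp8 and Adam8 have the untreated level above the treated one on every array.

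Cell markers were read beside these genes. Of 10 markers of myeloid progenitors and granulocytes on the array 9 were well above background in both channels on every array. The summed level over all probes of the 10 was 49200 to 55100 in treated cells and 84700 to 88100 in untreated cells. Such sums have no filter for saturated spots. This one takes in the marker Ctsg, which was above background but was not among the genes tested. Among the 8 tested in the fit 2 rose (Kit at 0.32 and Itgam at 0.38) and 4 fell (Mpo at -0.67, Elane at -0.62, Spi1 at -0.29 and Prtn3 at -0.28), a share of 75% beside 27.9% of all genes. Of 8 macrophage markers 4 to 6 were above background in treated cells and 5 in untreated cells, with summed levels of 1760 to 2060 in treated and 1850 to 2190 in untreated cells. Of the 4 tested, 0 rose and 3 fell (Mrc1 and Cd68 at -0.19 and Csf1r at -0.13), likewise 75%. Markers of fibroblasts (0 to 1 of 7 in each channel) and endothelium (0 to 1 of 5 in treated and 0 in untreated cells), which express several TIMPs and matrix metalloproteinases, were at or near the background. Those of T cells (1 to 3 of 6 in treated and 1 to 2 in untreated cells), B cells (1 of 5 in treated and 0 to 2 in untreated cells) and erythroid cells (0 to 1 of 5 in treated and 0 to 2 in untreated cells) were mostly so. Fewer cells of a type and less RNA per cell cannot be told apart in these bulk samples, and the part of the lower summed myeloid marker level in the ratios of the members was not tested.

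The relatives of the members that could be tested were few. Genes of these lists that did not pass for the mean are named for their role, a choice made after their values were seen. Mmp19 stood at 0.07 ± 0.03 and did not pass. Of the other ADAM genes on the list, Adam9 had ratios of 0.12, 0.17 and 0.30 and rose (0.20 ± 0.04 on average, limma adjusted p = 0.0168) and Adam15 did not pass (0.04 ± 0.04). Nor did Adam3, a sperm protein found by symbol outside the list (-0.02 ± 0.03). Both secreted ADAMTS proteases fell, Adamts14 with a mean of -0.14 ± 0.03 (adjusted p = 0.0165) and Adamts10 with -0.11 ± 0.03 (adjusted p = 0.0327). The calls for Adam9 and Adamts14 were lost without the 12 h array (adjusted p = 0.0831 and 0.16), and that for Adamts10 without any 1 array (adjusted p of 0.0568 to 0.169). From Agilent's processed signals Adam9 (adjusted p = 0.104) and Adamts10 (0.0536) lost theirs too. Without the filter on dim probes so did Adamts14 (0.0523) and Adamts10 (0.152). The size for both ADAMTS genes is not settled: Adamts14 was at -0.77 from Agilent's processed signals and -0.92 with median centring, and Adamts10 at -0.40 and -0.83.

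Genes whose products activate, dock or partner these proteases were read as a list. Of 16 tested, 0 rose, 1 fell and 15 did not pass, a share of 6.25% beside 27.9% of all genes, with a median of 0.02 beside 0.03. The 1 that fell was Cd44 (-0.16 ± 0.04, limma adjusted p = 0.0332), a hyaluronan receptor that can hold Mmp9 at the cell surface. It stood at 0.01 with median centring, and the call was lost without the 12 h array (-0.14, adjusted p = 0.198) or the 24 h array (-0.12, adjusted p = 0.109). The Cd44 call was also lost from Agilent's processed signals (adjusted p = 0.0634), without the filter on dim probes (0.128) and with the brightest probe (0.0696). Furin, which removes the propeptide of many of these enzymes, had a mean of -0.10 ± 0.04 and did not pass (adjusted p = 0.0795). Nor did the Adam17 partners Rhbdf2 (0.07 ± 0.04) and Frmd8 (0.09 ± 0.03), or the Adam10 partners Tspan5 (0.04 ± 0.03), Tspan14 (0.03 ± 0.04) and Tspan17 (-0.06 ± 0.04). Lcn2, the lipocalin that binds Mmp9, had ratios of 0.01, 0.25 and 0.71, did not pass for the mean (0.32 ± 0.12, adjusted p = 0.0777) and was the 1 gene of the list that passed for the slope (adjusted p = 0.00349). From Agilent's processed signals no gene tested passed for the slope.

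Surface proteins known to be shed moved both ways. Of 18 tested, 3 rose, 3 fell and 12 did not pass, a share of 33.3% beside 27.9% of all genes, with a median of -0.02 beside 0.03. Il1r2 did not pass for the mean (limma adjusted p = 0.23) but did for the slope (adjusted p = 0.000886), with ratios of -0.17, 0.21 and 0.61. That slope call was lost from Agilent's processed signals, as were all others. Vcam1, an adhesion molecule, fell (-0.02, -0.32 and -0.36, mean -0.23 ± 0.07, limma adjusted p = 0.0393). Spn, the leukocyte sialophorin CD43, rose (0.20, 0.33 and 0.34, mean 0.29 ± 0.04, adjusted p = 0.0052), and so did Notch1, the receptor cut by Adam10 (0.15 ± 0.04, adjusted p = 0.0268; -0.04 with median centring). Without the 12 h array Vcam1 (-0.19, adjusted p = 0.19) and Notch1 (0.16, adjusted p = 0.13) lost their call, and Spn kept it. Vcam1 (adjusted p = 0.12) and Notch1 (adjusted p = 0.0873) also lost it without the 24 h array. From Agilent's processed signals Vcam1 (adjusted p = 0.206) and Notch1 (0.0952) lost it too. The Vcam1 call was further lost with plain background subtraction (adjusted p = 0.0695) and without the filter on dim probes (0.0874). Transcript levels say nothing of how much of these proteins was shed.

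Of the matrix proteins that these enzymes cut, 4 were tested, and 1 rose and 1 fell, a share of 50% beside 27.9% of all genes. Spp1, which encodes osteopontin, fell, with ratios of -0.23, -0.90 and -1.26 (mean -0.79 ± 0.17, limma adjusted p = 0.0163). Its call was lost without the 12 h array (-0.74, adjusted p = 0.0649) and from Agilent's processed signals (-0.98, adjusted p = 0.0585). The slope of Spp1 per doubling of time passed (-0.51 ± 0.04, limma adjusted p = 0.000886), though no gene's slope did from Agilent's processed signals. Col4a2, a chain of basement membrane collagen, rose (0.13 ± 0.04, adjusted p = 0.0345), a direction that turned to -0.31 with median centring and a call that was lost without the 6 or the 12 h array (adjusted p = 0.0641 and 0.257). From Agilent's processed signals it was lost too (0.23, adjusted p = 0.116). Vcan (0.02 ± 0.03) and Agrn (-0.04 ± 0.04) did not pass. Col1a1, Col1a2 and Col3a1, of the fibrillar collagens, were not measured in both channels on any array.

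**Figure D5:**
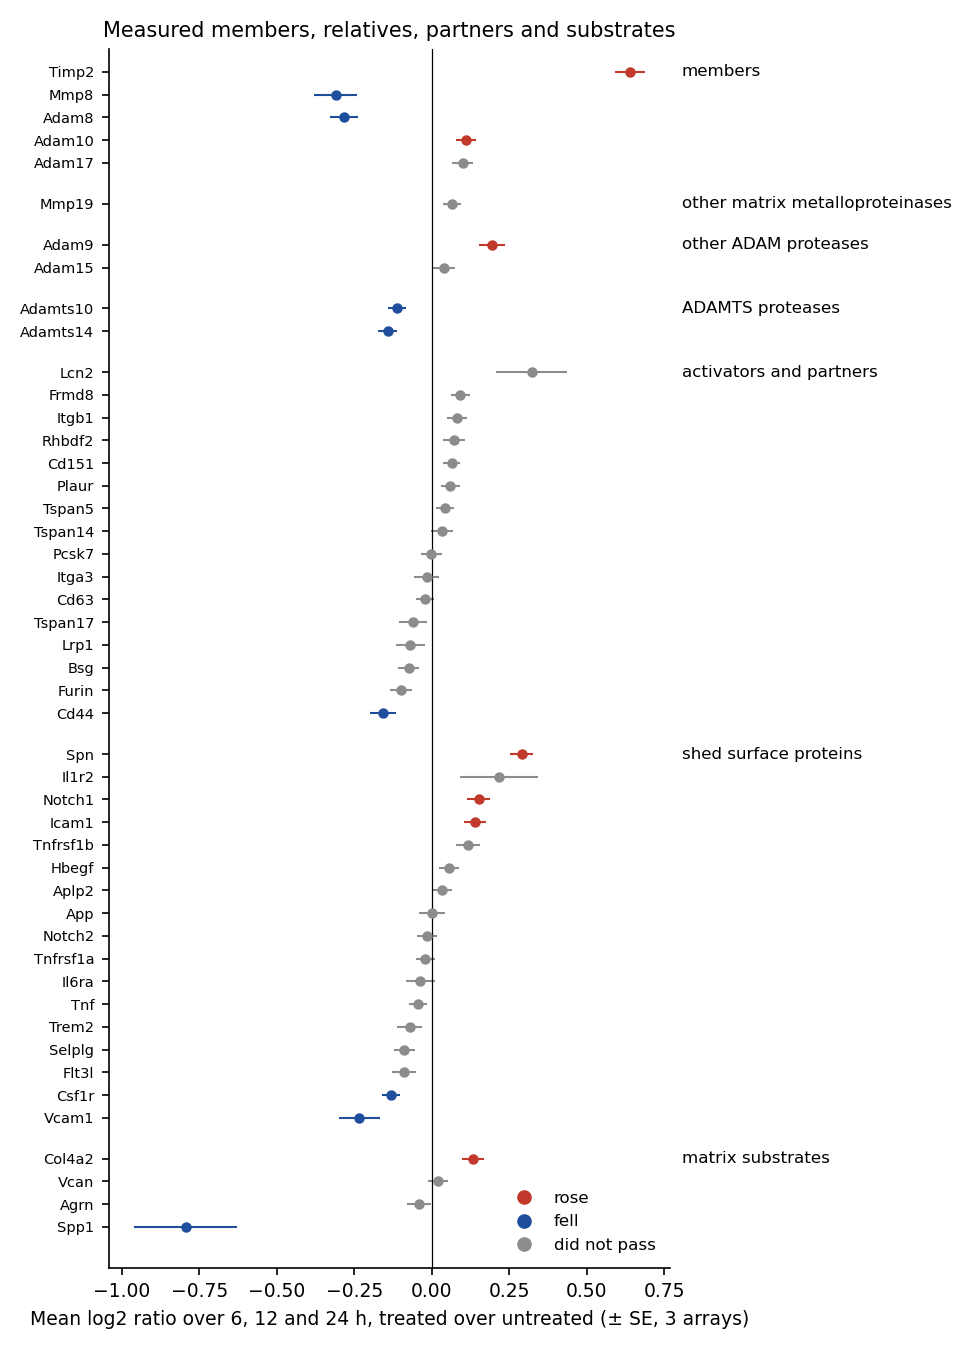
Mean log2 ratio of DB818-treated to untreated cells over 6, 12 and 24 h (horizontal axis, ± SE, 3 arrays) for the tested genes of the members and of 6 lists, in red where it rose, blue where it fell and grey where it did not pass. Timp2 at 0.64 is the highest of the genes drawn and Spp1 at -0.79 the lowest, and 15 of the 16 activators and partners are grey.

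The genes whose ratios at the 3 times were most like those of a called member were found by Euclidean distance over the 3 log2 ratios. For Timp2 they were Prss16 (0.46, 0.65 and 0.79, distance 0.088), Gja5 (0.42, 0.68 and 0.81, distance 0.119) and Slc32a1 (0.43, 0.61 and 0.65, distance 0.131). Those nearest to Mmp8 were Sergef, Myo18b and Grb14 at distances of 0.043 to 0.054, and to Adam8 they were Epop, Pgd and Fam234a at 0.038 to 0.064. Adam10, in the dense middle of the distribution, had Gmnn, Pik3r1 and Taf13 at 0.014 to 0.016. With 3 arrays that may share their untreated RNA, such likeness is a description of these ratios.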

How the data were processed

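The authors hybridised 3 two-colour Agilent arrays and extracted them with Agilent Feature Extraction 9.1.3.1, per the submitters' processing notes. The deposited scanner files hold mean foreground and median background intensity per channel, per the file headers, and also Agilent's processed signals. The authors' deposited value table holds log10 ratios of treated to untreated cells that equal those in the scanner files (largest difference 0; the median of each column was 0). Here limma 3.58.1 in R 4.3.3 was used for normexp background correction with an offset of 50, then for loess inside every array and no scaling across them. Control spots were dropped, as were 37, 36 and 52 spots that carry the scanner's outlier marks. A probe was measured if well above background and not saturated in both channels, which 40.6, 40.6 and 41.0% of probes were, and a gene's log2 ratio was the mean of its measured probes in the deposited files. Levels per channel were set across arrays by quantile normalisation of the average intensity.

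In limma, the mean ratio of the 3 arrays was set against 0 (2 residual degrees of freedom, prior 4.82), and the slope on log2 time with 1 residual degree of freedom (prior 8.37), adjusted by Benjamini-Hochberg over 10956 genes. Both fits were run on simulated data. Named genes were all members, the 3 genes nearest to each called member, and up to 4 called genes of each list with the largest means. The members and lists were chosen with earlier results of these data known, so no list is independent support. The values of 1 gene that enters the counts of the shed proteins are not reported here. Gene names came from RefSeq by accession (22864 probes), symbol (6732) or synonym (3492), else from the file (8086). Upstream sequences came from a RefSeq table of build GRCm38.p6. Alternatives covered background correction, scanner signals, normalisation, the filter on dim probes, probe choice, time scale, threshold, array weights and leaving out each array. Figures were drawn with Python 3.11.15 and matplotlib 3.10.9.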

Additional observations from a re-analysis of the deposited data

Results flagged for a closer look

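The ratio of Mmp8 differed between times by the test of the slope: it changed by -0.20 on the log2 scale per doubling of time, with ratios of -0.10, -0.33 and -0.50 at 6, 12 and 24 h. This was the 1 member for which the times differed by a test, and with loess 0 members had ratios of opposite sign at any pair of times. No group had enough arrays to look for a single array far from the others.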

How the results depend on the processing

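Each ratio already pairs treated with untreated cells on 1 array. No further pairing between times was possible because each time has 1 array and the labels number no replicates across groups. Over all genes, the 2199 higher and 861 lower calls for the mean became 590 higher from Agilent's processed signals, 4154 and 4476 with median centring, 4188 and 2125 with array weights, and 675 and 228 at a false discovery rate of 0.01. The array weights were 0.424, 4.4 and 0.536 at 6, 12 and 24 h, so the counts with array weights lean on the 12 h array. With each probe tested on its own, 3313 of 15867 probes were higher (20.9%, beside 20.1% of genes). Leaving out 1 array gave 409 to 2296 higher and 143 to 957 lower, the lowest without the 12 h array, with 1 residual degree of freedom fewer. Of the members, 1 in place of 2 was higher with median centring, without the filter on dim probes, at a false discovery rate of 0.01 and without any 1 array (range 1 to 1), each time by the loss or reversal of Adam10 (-0.64 with median centring). The members lower were 1 in place of 2 from Agilent's processed signals and at a false discovery rate of 0.01, by the loss of Mmp8, and 1 to 2 without 1 array. For the slope, the counts over all genes of 196 higher and 138 lower became 71 and 48 with plain subtraction, 0 and 0 from Agilent's processed signals, 45 and 22 with median centring, 64 and 48 without the filter, and 337 and 278 with the brightest probe. The 1 member lower by slope (Mmp8) became 0 in the first 3 of these settings. The causes were not tested. Timp2 and Adam8 kept their calls in all settings run for the mean. Of the 10 relatives, partners and substrates that the naming rule chose from the lists, the number with a kept call was 1 when the 12 h array was left out and 2 with Agilent's processed signals, and 3 turned direction with median centring. Signal over background limits the 9 probes with no ratio and Adam10, whose ratios the offset of 50 draws toward 1.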
